A study of Mus musculus with 8 samples.

Results

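The genes described here are 7 of the extracellular purine pathway of CD8+ T cells: Nt5e, Entpd1, Cd38, Adora2a, P2rx7, Ada and Dpp4. They were named one by one, out of 24976 gene symbols with counts, after earlier results of these data were known. Nt5e was picked for its lower level at 24 h in the libraries labelled dKO, so its values at 24 h, and every comparison that uses those libraries, are given as a description with no test. The other 6 genes act in the same pathway, and how far their own values led to their being named is not recorded. The p-values below come from the fit over all genes and are not independent evidence for the choice.

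RNA was sequenced in bulk from naive CD8+ T cells of mice stimulated in vitro through CD3 (antibody at 2 µg/ml) and CD28 (antibody at 1 µg/ml), with IL-2 added at 10 ng/ml. The cells labelled dKO came from mice with Cd8Cre and floxed alleles of both Nr4a1 and Nr4a2, and the WT cells from wild-type littermates. There were 2 libraries in each of 4 groups: dKO at 48 h, WT at 48 h, dKO at 24 h and WT at 24 h. Whether the WT mice carried Cre, and whether replicates came from separate mice, is not given in the sources used here, so p-values measure only the spread between these libraries.

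Extracellular ATP is a danger signal that opens P2X channels on T cells. The ectoenzyme CD39, encoded by Entpd1, cuts ATP and ADP to AMP, and CD73, encoded by Nt5e, cuts AMP to adenosine. Adenosine acts on the receptor encoded by Adora2a, which raises cyclic AMP and dampens T cell activation. CD38 consumes extracellular NAD and can feed the same route, while adenosine deaminase, encoded by Ada, turns adenosine into inosine. In humans that enzyme is held at the cell surface by CD26, the product of Dpp4, but mouse CD26 is known to bind it poorly. In mice CD73 is carried by resting CD8+ T cells as well as by regulatory T cells and B cells.

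Total counts ran from 5000952 to 21686236 per library, and levels are given as CPM, a gene's count relative to its library's total after scaling by TMM factors. The counts do not check the deletion, and Nr4a2 goes against the label. Nr4a2 stood at 75.3 and 77.1 CPM in the libraries labelled dKO at 48 h, against 24.5 and 33.1 CPM in WT, and at 142 and 136 CPM in those labelled dKO at 24 h, against 59.7 and 49.1 CPM in WT. It was called higher in dKO at 48 h (log2 fold change 1.38, SE 0.176, adjusted p = 0.00982 in edgeR) and at 24 h (1.35, SE 0.173, adjusted p = 0.00837 in edgeR). Nr4a1 stood at 633 and 668 CPM against 879 and 777 CPM at 48 h, and at 532 and 505 CPM against 525 and 275 CPM at 24 h, dKO before WT. Which parts of Nr4a1 and Nr4a2 were deleted, and which parts the counts cover, is not given in the sources used here. Whether the genotype labels were exchanged was not tested. Every genotype direction here, that of Nt5e included, is the direction of the labels and would turn with them. Sex and genotype label cannot be told apart: Xist ranged between 0.655 and 1.67 CPM over the 4 dKO libraries, and between 386 and 816 CPM over the 4 WT ones. Each of the 7 genes lies on an autosome. The labelled cell type held in its markers, with Cd8a at 509 to 851 CPM and Cd4 at 0 in 6 of 8 libraries and at most 2 counts in the others. Since these are bulk samples, fewer cells with a transcript and less of it per cell cannot be told apart.

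The 250 bases before the RefSeq start of Nt5e and Entpd1 (GRCm38.p6) are shown because their transcripts had the largest fitted changes among the 7 genes, in opposite directions over time. The Nt5e window is chr9:88327359-88327608 and the Entpd1 window, the first of 2 listed starts, is chr19:40612116-40612365, both on the plus strand.
Nt5e: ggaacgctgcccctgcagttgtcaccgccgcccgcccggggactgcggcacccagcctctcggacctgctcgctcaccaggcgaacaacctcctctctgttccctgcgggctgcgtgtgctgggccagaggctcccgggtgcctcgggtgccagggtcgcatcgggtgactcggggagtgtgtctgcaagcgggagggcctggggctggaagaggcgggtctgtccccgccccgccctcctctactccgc
Entpd1: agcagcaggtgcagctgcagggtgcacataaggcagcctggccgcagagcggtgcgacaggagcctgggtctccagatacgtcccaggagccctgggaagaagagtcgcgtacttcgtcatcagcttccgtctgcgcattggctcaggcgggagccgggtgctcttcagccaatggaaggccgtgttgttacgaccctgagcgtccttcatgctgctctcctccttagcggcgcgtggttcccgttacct
Neither window has capitals, which would mark a motif match. The motifs searched on both strands were the NR4A monomer site NBRE (AAAGGTCA), the cyclic AMP response element (TGACGTCA) and the AP-1 site (TGANTCA). Over 32851 RefSeq promoter windows of the same length, 1.34% held the first, 1.55% the second and 6.75% the third. Of the 8 windows listed for 6 of the genes, 1 of the P2rx7 windows held an AP-1 match and 0 held either of the others. The Nt5e window is rich in G and C (72.0%), with 21 CG dinucleotides against a median of 6 over all windows, and the Entpd1 window has 18. Of all windows, 83.7% had fewer CG dinucleotides than that of Nt5e and 78.3% fewer than this one of Entpd1. The second Entpd1 window has 8. A match or its lack describes these letters alone.

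Nt5e, the gene for the enzyme that makes adenosine at the cell surface, was lower in the libraries labelled dKO at both times. At 48 h it stood at 4.46 and 5.06 CPM in the libraries labelled dKO, against 13.6 and 16.2 CPM in WT. At 24 h it stood at 15.3 and 12.1 CPM in the libraries labelled dKO, against 33.0 and 43.8 CPM in WT. The groups did not overlap at either time, and both dKO libraries at 48 h were below all 6 others. Both dKO libraries lay below both WT libraries in 28.6% of all genes tested at 48 h and in 20.6% at 24 h.

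The order of the group means, from high to low, was WT at 24 h (38.4 ± 7.69 CPM), WT at 48 h (14.9 ± 1.80 CPM), dKO at 24 h (13.7 ± 2.28 CPM) and dKO at 48 h (4.76 ± 0.424 CPM; SD, n = 2 each). The libraries of dKO at 24 h and WT at 48 h overlap, so those means differed by less than the spread between replicates. Nt5e at 48 h was 0.317 times its WT level in the libraries labelled dKO, with a log2 fold change of -1.66 (SE 0.236, adjusted p = 0.0135 in edgeR). The group means compared at 48 h come from other libraries than those that led to the choice of Nt5e. The fit takes the spread between replicates from all 8 libraries, and earlier results of these data were known at that choice. It was the only call among the 6 genes tested at 48 h, when 8.04% of all 12742 genes tested were called lower and 11.2% were called in either direction. The call was lost without dKO 48 h replicate 1 (adjusted p = 0.137) or replicate 2 (adjusted p = 0.184) in edgeR, and it held in the other 13 alternatives.

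As a description, the log2 fold change of Nt5e at 24 h was -1.47 (SE 0.208), and the difference between the 48 h and 24 h values was -0.18 (SE 0.313, 95% interval -0.88 to 0.52). The log2 fold change of 48 h over 24 h was -1.53 (SE 0.242) in cells labelled dKO and -1.35 (SE 0.202) in WT cells. These values share libraries and are not separate evidence. Cd4 was at or near 0, but Foxp3, the factor that defines regulatory T cells, was lower in dKO at both times, like Nt5e. It had 1.34 and 2.46 CPM in the libraries labelled dKO at 48 h, against 2.90 and 2.89 CPM in WT. At 24 h Foxp3 had 2.07 and 2.60 CPM in the libraries labelled dKO, against 3.51 and 3.37 CPM in WT. These levels rest on 9 to 55 counts per library. Such an order of the libraries held for 28.6% of all genes tested at 48 h and 20.6% at 24 h. The summed level of the 6 markers of CD4 or regulatory T cells was 440 to 460 CPM against 496 to 597 CPM at 48 h and 408 to 410 CPM against 422 to 423 CPM at 24 h, dKO before WT, most of it Il2ra, which activated CD8+ cells also express. Ikzf2, another gene of that list, did not follow Nt5e throughout. It had 21.4 and 19.2 CPM in dKO at 48 h, against 33.1 and 39.1 CPM in WT. At 24 h it had 22.5 and 26.9 CPM in dKO, against 22.2 and 17.1 CPM in WT. Zbtb7b and Cd40lg, also of that list, overlapped between labels at both times, at 1 to 11 and 2 to 7 counts per library. Of the B cell markers, Ebf1 was at 0 in all 8 libraries, and Cd79a and Ms4a1 were at 0 in 7 of 8. Cd79b was counted in every library, and at 24 h it had 4.26 and 3.15 CPM in dKO, against 6.45 and 5.28 CPM in WT. Pax5, at 1 to 10 counts per library, went the other way at 24 h. It then had 0.327 and 0.556 CPM in dKO, against 0.140 and 0.147 CPM in WT. At 48 h Pax5 had 0.297 and 0.259 CPM in dKO, against 0.852 and 0.525 CPM in WT. The sum over 5 of the 6 B cell markers was 3.86 and 4.93 CPM in dKO at 48 h, against 4.09 and 5.04 CPM in WT, and 3.71 and 4.58 CPM in dKO at 24 h, against 6.01 and 6.59 CPM in WT. That sum, most of it Cd79b, overlapped at 48 h and was lower in dKO at 24 h, like Nt5e. The part of regulatory T cells or B cells in the Nt5e values was not tested.

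**Figure D1:**
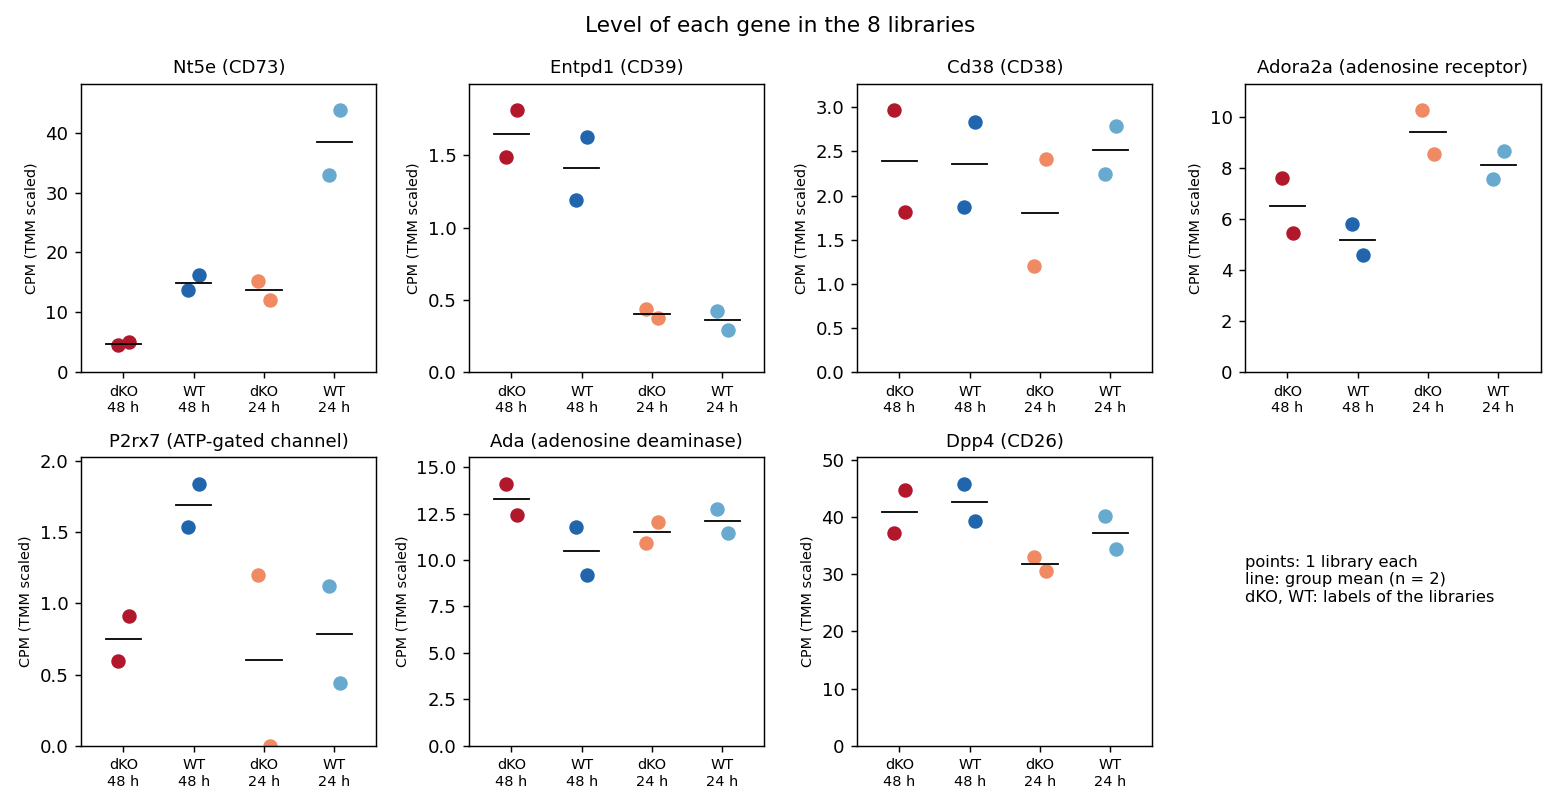
Levels of the 7 genes in CPM (vertical axes, each from 0) in the 8 libraries, with 1 point per library and a line at the mean of each group of 2. Nt5e stood at 4.46 to 5.06 CPM in dKO at 48 h against 13.6 to 16.2 CPM in WT, while Entpd1 was above 1 CPM in all 48 h libraries and under 0.5 CPM in all 24 h libraries.

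Entpd1, whose product CD39 performs the step before CD73, was higher at 48 h than at 24 h under both labels and did not differ detectably between them. In cells labelled dKO it had 1.49 and 1.81 CPM at 48 h, against 0.437 and 0.371 CPM at 24 h. In WT cells it had 1.19 and 1.63 CPM at 48 h, against 0.421 and 0.293 CPM at 24 h. Every 48 h library was above every 24 h library, as was so for 7.96% of all genes tested. These levels rest on few reads: 24 counts at 48 h against 6 at 24 h in dKO, and 38 against 5 in WT.

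The ratio of those counts, scaled by library, was 4.03 in dKO (95% counting interval 1.60 to 12.1) and 4.26 in WT (1.67 to 13.9). In edgeR the log2 fold change was 1.97 in dKO (SE 0.523, adjusted p = 0.0746) and 2.01 in WT (SE 0.525, adjusted p = 0.0364), and the difference between labels was -0.03 (SE 0.695, 95% interval -1.59 to 1.52). Entpd1 was the only one of 5 members called in WT, where 11.4% of all genes were called, and 0 were called in dKO, where 3.63% were. In dKO 1 of the 5 was higher at an unadjusted p under 0.05, and DESeq2 called 0 in either label but gave Entpd1 no adjusted p over time. Entpd1 passed the filter on low counts only through the 48 h libraries, so it could hardly have entered the test without a difference over time. Without that filter the adjusted p was 0.042 in WT and 0.0495 in dKO. In a fit of the WT libraries alone, and without dKO 48 h replicate 2, Entpd1 did not pass the filter. The WT call was lost without dKO 48 h replicate 1, WT 48 h replicate 2, or either of the 24 h libraries of each label (adjusted p = 0.0779 to 0.256 in edgeR), and with scaling by library size alone (adjusted p = 0.0523) or the replicate number as a term (adjusted p = 0.0605). The dKO change was called in a fit of the dKO libraries alone (adjusted p = 0.00705 in edgeR), when 4545 of all genes were called. Over 7 fits that each left out 1 library, the dKO log2 fold change ranged from 1.89 to 2.13.

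Between labels Entpd1 differed by a log2 value of 0.16 at 48 h (95% interval -0.71 to 1.03) and 0.19 at 24 h (95% interval -1.38 to 1.76). True differences of any size within these intervals remain compatible with the counts, and the smallest detectable difference was not computed. Across the 8 libraries, Entpd1 and Nt5e had a Pearson correlation of -0.724 on log2 CPM, a description over libraries that share time and label.

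Cd38, the NAD-consuming ectoenzyme, showed no call in any comparison. It had 2.97 and 1.81 CPM in the libraries labelled dKO at 48 h, against 1.88 and 2.84 CPM in WT, and 1.20 and 2.41 CPM in those labelled dKO at 24 h, against 2.24 and 2.78 CPM in WT. The groups overlapped at both times. The log2 fold change was -0.07 at 48 h (SE 0.409, 95% interval -0.98 to 0.84) and -0.56 at 24 h (SE 0.460, 95% interval -1.59 to 0.47), so changes of close to 2-fold either way at 48 h lie within the interval.

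Adora2a, the gene for the adenosine receptor, was counted in every library. It had 7.58 and 5.44 CPM in the libraries labelled dKO at 48 h, against 5.80 and 4.57 CPM in WT, and 10.3 and 8.53 CPM in those labelled dKO at 24 h, against 7.57 and 8.65 CPM in WT. The labels overlapped at each time, but within each label both 48 h libraries lay below both 24 h libraries, which held for 12.9% of all genes tested. The genotype log2 fold changes were 0.36 at 48 h (SE 0.253, adjusted p = 0.34) and 0.23 at 24 h (SE 0.240, adjusted p = 0.907) in edgeR. Over time they were -0.55 in dKO (SE 0.245, adjusted p = 0.215) and -0.68 in WT (SE 0.248, adjusted p = 0.115), which did not pass. The WT value was -0.81 without WT 48 h replicate 1. With library size scaling it passed in edgeR (-1.04, adjusted p = 0.0156), when 3368 of all genes were called. That scaling moves the median of all genes by -0.36. In a fit of the dKO libraries alone the dKO value passed (-0.57, adjusted p = 0.0383 in edgeR), when 4545 of all genes were called.

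P2rx7, the ATP-gated channel through which NAD and ATP can kill T cells, was too rare for the main fit. It had 0.594 and 0.907 CPM in the libraries labelled dKO at 48 h, against 1.53 and 1.84 CPM in WT, so those groups did not overlap. At 24 h the libraries labelled dKO held 11 and 0 counts, against 8 and 3 counts in WT. A count of 0 in that library allows a level of up to 0.556 CPM. Over the 2 libraries of each group the counts at 48 h were 11 in dKO and 44 in WT, a scaled ratio of 0.431 (95% counting interval 0.201 to 0.848). With no filter, edgeR gave a log2 fold change of -1.17 at 48 h (SE 0.573, adjusted p = 0.185) and -0.13 at 24 h (SE 0.695, adjusted p = 1), so no call was made. Of all genes tested, 28.6% had both dKO libraries below both WT libraries at 48 h. Myeloid cells also carry P2rx7, and the sum over 6 of the 7 myeloid markers moved with it at 48 h, with 6.68 and 7.13 CPM in dKO, against 14.2 and 15.9 CPM in WT. At 24 h the sums of the labels overlapped. Cd14 made up much of the sum, and Lyz2 was at 0 in all 8 libraries. At 48 h Csf3r had 1.49 and 1.30 CPM in dKO, against 2.05 and 3.10 CPM in WT. Cd14, Csf1r and Itgam also lay lower in dKO at 48 h, the last 2 at 0 to 11 counts per library, and Fcer1g overlapped. At 24 h Csf3r again lay lower in dKO, while Csf1r lay higher, with 0 counts in both WT libraries. The part of myeloid cells in the P2rx7 values was not tested.

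Ada, the deaminase, ranged from 9.20 to 14.1 CPM and Dpp4, its human anchor, from 30.6 to 45.9 CPM. Neither had a call in the main fit. Ada had 14.1 and 12.4 CPM in the libraries labelled dKO at 48 h, against 11.8 and 9.20 CPM in WT, and 10.9 and 12.1 CPM in those labelled dKO at 24 h, against 12.8 and 11.4 CPM in WT. Its groups did not overlap at 48 h, when 28.3% of all genes had both dKO libraries above both WT libraries, and the log2 fold change was 0.37 (SE 0.196, adjusted p = 0.216 in edgeR). Over the fits that each left out 1 library, that value ranged from 0.17 to 0.51. At 24 h it was -0.08 (SE 0.201, adjusted p = 0.959), with overlapping groups.

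Dpp4, a serine protease also known as a costimulatory surface protein, had 37.1 and 44.7 CPM in the libraries labelled dKO at 48 h, against 45.9 and 39.3 CPM in WT. At 24 h it had 33.1 and 30.6 CPM in the libraries labelled dKO, against 40.1 and 34.4 CPM in WT. The groups overlapped at 48 h and lay apart at 24 h, where 20.6% of all genes had both dKO libraries below both WT libraries. The log2 fold change was -0.05 at 48 h (95% interval -0.41 to 0.32) and -0.22 at 24 h (95% interval -0.60 to 0.15). From 24 to 48 h it was 0.36 in dKO (SE 0.166, adjusted p = 0.226) and 0.18 in WT (SE 0.164, adjusted p = 0.542) in edgeR. The dKO value was 0.38 without WT 48 h replicate 1. It passed in a fit of the dKO libraries alone (0.35, adjusted p = 0.0126 in edgeR), when 4545 of all genes were called.

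At 24 h edgeR called 0 of the 5 members tested beside Nt5e, against 0.432% of all genes in either direction and 0.0706% in the downward one. Of these 5, 0 had an unadjusted p under 0.05 and DESeq2 called 0. Averaged over both times edgeR again called 0 of the 5, with 0 at an unadjusted p under 0.05 and 0 by DESeq2, when 7.8% of all genes were called. The test of whether the genotype difference changed with time called 0 of the 5 and 0% of all genes. At an unadjusted p under 0.05 it had 0 of the 5 and, over all genes, 436 with a positive and 1138 with a negative value, and DESeq2 called 0 of either.

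**Figure D2:**
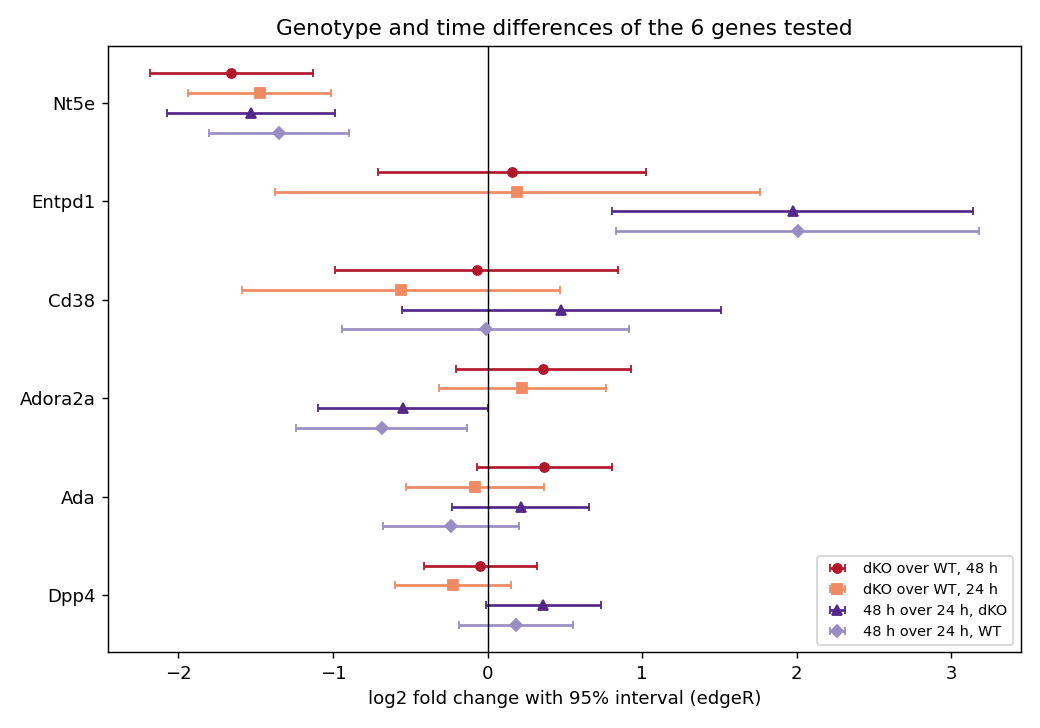
Log2 fold changes (horizontal axis) with 95% intervals from edgeR for the 6 genes tested, for dKO over WT at 48 and 24 h and for 48 h over 24 h under each label. The 4 Nt5e values lie between -1.66 and -1.35, and the Entpd1 values over time lie at 1.97 and 2.01. The Nt5e values other than the one at 48 h are a description.

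The wider pathway was followed in a list of 88 genes, the 7 included, of which 60 were tested. Among those 60, 1 rose and 2 fell at 48 h, dKO against WT, beside 3.19% and 8.04% of all genes tested. The median log2 fold change of the list was 0.02, beside -0.03 over all genes. Besides Nt5e, the one that fell was Slc29a4, an equilibrative transporter of monoamines and adenosine, with 1660 and 1529 CPM in the libraries labelled dKO, against 3421 and 3237 CPM in WT (-1.06, SE 0.247, adjusted p = 0.026 in edgeR). The one that rose was Pnp2, a purine nucleoside phosphorylase paralog of Pnp, with 24.8 and 24.9 CPM against 18.1 and 13.7 CPM, dKO before WT (0.67, SE 0.181, adjusted p = 0.044 in edgeR). All 4 dKO libraries had more Pnp2 than any WT library, as had 5.25% of all genes, though the value over both times did not pass (0.48, adjusted p = 0.0521 in edgeR). Reads of Pnp and Pnp2, which are near copies, may have been split by the counting, and Pnp did not pass (0.48, SE 0.211, adjusted p = 0.145 in edgeR). The group listed as purine salvage inside the cell had 19 tested genes, with Entpd4, Entpd5, Entpd6, Entpd7 and Nt5c3 counted in. Of these, 14 had a positive log2 fold change at 48 h and 5 a negative one. Their median was 0.38, beside -0.03 over all genes, with only the Pnp2 call. Whether the group moved as a whole was not tested.

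The 2 WT libraries at 48 h were the least alike, with totals of 7018314 and 21686236 counts. Their median absolute log2 difference was 0.364, against 0.149 to 0.195 in the other groups. The part of this spread in the calls was not tested. The counts of calls in the list were small and depended on single libraries. The calls over all genes, 1430 at 48 h, moved in the same fits. Leaving out WT 48 h replicate 1 gave 23 calls in the list at 48 h (15 higher, 8 lower) and 6522 over all genes. Leaving out dKO 48 h replicate 1 or 2 gave 0 in the list and 18 or 15 over all genes, and leaving out either of dKO at 24 h gave 1 in the list and 516 or 491 over all genes. With library size scaling 6 of the list rose and 2 fell (1624 and 916 of all genes), and with no filter 2 rose and 4 fell (940 and 2022 of all genes). The Slc29a4 call was lost without any 1 of the 4 dKO libraries (adjusted p = 0.0739 to 0.233 in edgeR). The Pnp2 call held in 1 of 8 such fits, the one without WT 48 h replicate 1, and was lost in the other 7 (adjusted p = 0.0792 to 0.239 in edgeR). It was also lost with a mean of at least 50 counts (adjusted p = 0.0535), the replicate number as a term (0.0585) or a fit of the 48 h libraries alone (0.171) in edgeR, and in DESeq2 (0.0874). Slc29a4 stood in a nearly fixed ratio of 0.195 to 0.210 to the summed CPM of Csrp3, Ropn1, Odf4 and Tnp2 in all 8 libraries. These are a muscle gene and 3 testis genes. The part of these genes in its differences was not tested.

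**Figure D3:**
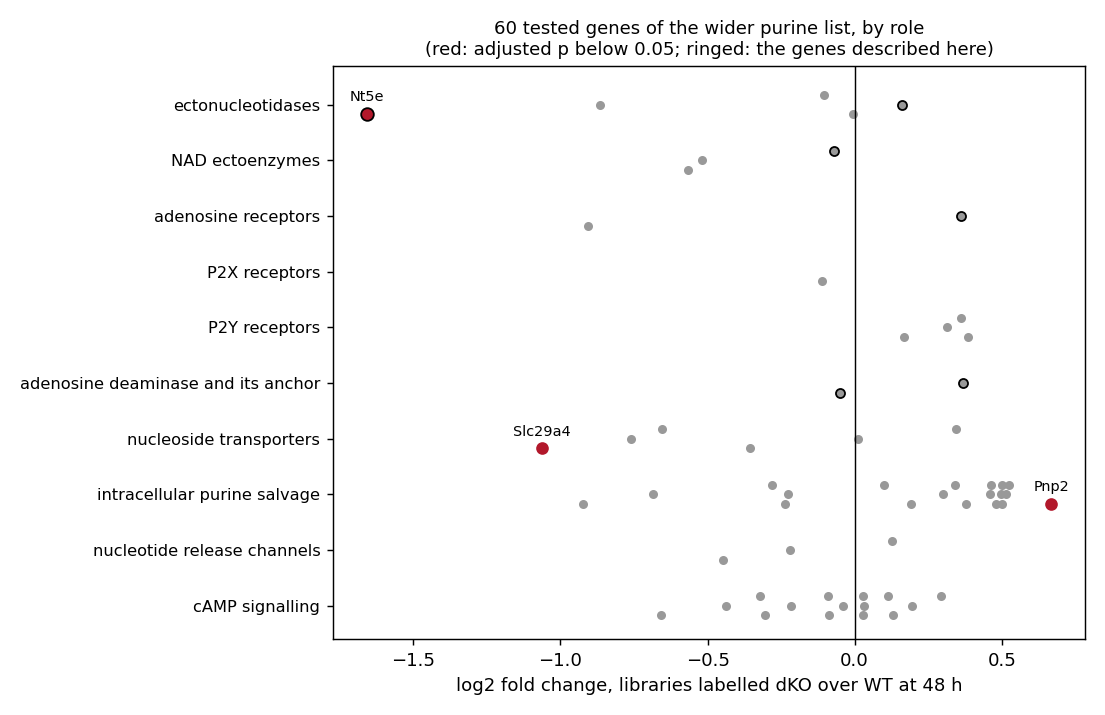
Log2 fold change at 48 h, libraries labelled dKO over WT (horizontal axis), of the 60 tested genes of the wider purine list, grouped by role (vertical axis). Red points are the 3 called genes, Nt5e at -1.66, Slc29a4 at -1.06 and Pnp2 at 0.67, and ringed points are the genes described one by one.

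At 24 h edgeR and DESeq2 called 0 of the 59 listed genes beside Nt5e, and an unadjusted p under 0.05 was reached by 1 with a positive and 2 with a negative value, beside 500 and 389 of all 12742 genes. The list had a median of -0.08, beside 0.01 over all genes. In fits without WT 48 h replicate 1 or 2, or without the filter, 2 were called lower, and 1 was in a fit of the 24 h libraries alone, when 368, 362, 206 and 181 of all genes were called. Averaged over both times, 0 of the 59 rose and 3 fell: Slc28a2, Entpd4 and Slc29a4, against 2.28% higher and 5.52% lower among all genes.

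Slc28a2, a sodium-coupled transporter that takes up purine nucleosides, had 6.83 and 5.32 CPM in the libraries labelled dKO at 48 h, against 10.7 and 8.67 CPM in WT. At 24 h it had 6.66 and 5.56 CPM in the libraries labelled dKO, against 11.1 and 12.9 CPM in WT. All 4 dKO libraries were below all 4 WT libraries, which held for 3.26% of all genes tested. Its log2 fold change over both times was -0.80 (SE 0.162, adjusted p = 0.0248 in edgeR). The call was lost without any 1 of the 4 dKO or either of the WT 24 h libraries (adjusted p = 0.0684 to 0.141 in edgeR).

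Entpd4, a Golgi relative of CD39, had 3.86 and 6.74 CPM in the libraries labelled dKO at 48 h, against 8.52 and 8.67 CPM in WT. At 24 h it had 4.91 and 4.82 CPM in the libraries labelled dKO, against 10.5 and 12.6 CPM in WT, so these 2 sets of 4 did not overlap either. The log2 fold change over both times was -0.96 (SE 0.187, adjusted p = 0.0234 in edgeR). It was lost without dKO 48 h replicate 1 or any 1 of the 24 h libraries (adjusted p = 0.0621 to 0.136 in edgeR), and reads it shares with its near copy Entpd4b may have been split. Slc29a4 over both times (-0.71, SE 0.174, adjusted p = 0.0364 in edgeR) was lost without any 1 of the 4 dKO libraries. Leaving out single libraries moved the number called over both times to 22 (12 higher, 10 lower) when it was WT 48 h replicate 1 and to 5 (2 higher, 3 lower) when it was the other WT library of that time. It was 0 with dKO 48 h replicate 1 or either library of dKO at 24 h left out, and 1 with dKO 48 h replicate 2 or either library of WT at 24 h left out. With library size scaling 2 rose and 3 fell, and with no filter 2 rose and 4 fell.

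Over time, the list held calls of several roles. In cells labelled dKO 1 of 59 rose and 3 fell from 24 to 48 h, against 1.76% and 1.88% of all genes. P2ry10, a lysophospholipid receptor of the P2Y family, rose with 57.0 and 52.2 CPM at 48 h, against 26.2 and 22.8 CPM at 24 h (1.15, SE 0.180, adjusted p = 0.00957 in edgeR). Slc29a3, a transporter of lysosomal nucleosides, fell with 8.17 and 11.4 CPM at 48 h, against 33.5 and 37.1 CPM at 24 h (-1.84, SE 0.319, adjusted p = 0.0156 in edgeR). Pde8a, a phosphodiesterase that degrades cyclic AMP, fell with 1.49 and 1.43 CPM at 48 h, against 4.15 and 5.38 CPM at 24 h (-1.68, SE 0.369, adjusted p = 0.0396 in edgeR). Alpl, an alkaline phosphatase that can also release adenosine from AMP, fell to 3 counts at 48 h, against 23 at 24 h, a scaled ratio of 0.131 (95% counting interval 0.0253 to 0.435, adjusted p = 0.0486 in edgeR). Each of these 4 calls was lost without any 1 of the dKO libraries (adjusted p = 0.0957 to 0.315 in edgeR), and those of Alpl and Pde8a also without either of the WT 24 h libraries. Alpl passed the filter on low counts only through the 24 h libraries, so under both labels its entry into the test over time depended on its level there.

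In WT cells 4 of 59 rose and 4 fell from 24 to 48 h, against 7.87% and 3.5% of all genes, and with library size scaling 1 rose and 19 fell. Alpl fell here too, to 10 counts at 48 h, against 28 at 24 h (-2.32, SE 0.511, adjusted p = 0.0163 in edgeR), and Slc29a3 with 10.1 and 21.9 CPM at 48 h, against 32.7 and 36.2 CPM at 24 h (-1.05, SE 0.297, adjusted p = 0.0499 in edgeR). Slc29a2, a nucleoside carrier, fell by 0.95 on the log2 scale, and Adk, which phosphorylates adenosine to AMP inside the cell, fell by 0.69. Those that rose were Entpd1, Slc29a4 at 1.46, Ak4, a mitochondrial adenylate kinase, at 1.11, and Panx1, a channel that releases ATP, at 0.57. Panx1 was lost with library size scaling (0.21). All of these calls but Slc29a4 were lost when either library of WT at 24 h was left out (adjusted p = 0.0781 to 0.296 in edgeR). Those of Slc29a2, Slc29a3 and Panx1 were also lost without any 1 of the dKO libraries, that of Adk without either of dKO at 48 h, and that of Slc29a2 without WT 48 h replicate 2. The number called was 23 when WT 48 h replicate 1 was left out and 13 when replicate 2 was. It was 3 with either library of dKO at 48 h left out, 4 with either of dKO at 24 h, 1 (Slc29a4) with either of WT at 24 h and 0 in a fit of the WT libraries alone. Over time in cells labelled dKO the number was 16 when WT 48 h replicate 1 was left out and 15 when replicate 2 was, 0 without any 1 of the dKO libraries, 9 with no filter and 23 in a fit of the dKO libraries alone. None of these genes was called for a change of the genotype difference with time in edgeR.

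The genes whose levels followed Nt5e most closely were sought by Pearson correlation of log2 CPM over the 8 libraries, among 10201 genes with a mean of at least 20 counts. The highest were Ubash3b at 0.981, Trpm1 at 0.970, Pi4k2a at 0.966, Nfix at 0.963 and Igf1r at 0.962. Ubash3b, a phosphatase that dampens T cell receptor signals, had group means of 28.5 CPM in dKO and 49.4 CPM in WT at 48 h, and 54.3 CPM in dKO and 76.8 CPM in WT at 24 h. Igf1r, a growth factor receptor, had 5.40 and 11.2 CPM at 48 h and 11.2 and 18.9 CPM at 24 h, dKO before WT. Among the lowest were Tigd2 at -0.979 and Spc24 at -0.977. Spc24, a kinetochore protein, had group means of 103 CPM in dKO and 77.6 CPM in WT at 48 h, and 80.0 CPM in dKO and 57.1 CPM in WT at 24 h. These genes share the libraries, times and labels with Nt5e, so the correlations describe a like order of the groups. None of the other 5 tested members followed Nt5e as closely, with correlations from -0.724 for Entpd1 to 0.279 for Adora2a.

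**Figure D4:**
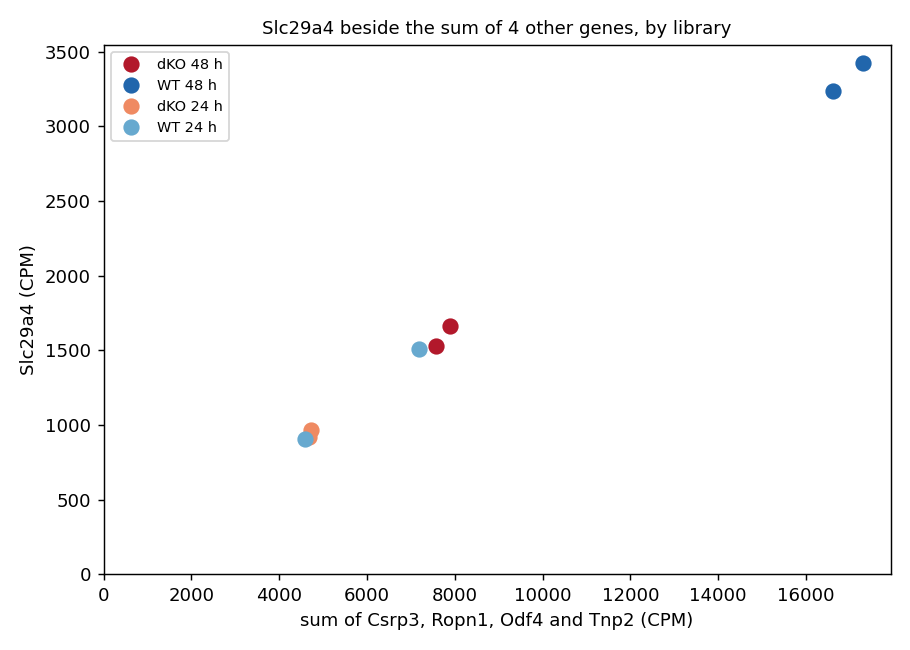
Slc29a4 (vertical axis, CPM) against the summed CPM of Csrp3, Ropn1, Odf4 and Tnp2 (horizontal axis) in the 8 libraries, 1 point each, coloured by group. The ratio stayed between 0.195 and 0.210, and both WT libraries at 48 h stood highest on both axes.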

How the data were processed

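Whole-number counts per gene were deposited by the authors for 8 bulk RNA libraries. The submitters' processing notes name cutadapt 1.18, Bowtie2 2.2.5 and the mm10 build. No source used here gives the counting program, annotation, strand rule or use of molecular identifiers. The table's name hints at 5' end reads, so levels are compared within genes only. An entry without a name equals the column totals (50% of each column's sum) and was left out.

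Genes were tested two-sided with edgeR 4.0.16 (R 4.3.3), by its quasi-likelihood F test, on all libraries together with a mean per group, TMM scaling and filterByExpr (minimum count 10). That kept 12742 genes and left 4 residual degrees of freedom. A call is a Benjamini-Hochberg adjusted p below 0.05 over all of them. SEs are the size of the log2 fold change divided by the root of F, and intervals are 95%. Floors are 3 counts, or 0.158 to 0.556 CPM per library. Counting intervals and floors cover counting error only. Alternatives were DESeq2 1.42.0, other scalings and filters, fits of fewer groups, a replicate term and left-out libraries. The fits were also run on simulated data, with an outcome that is not reported here. The members, the list of 88 genes and the markers were chosen with earlier results of these data known. Named are the members, up to 4 called list genes per role and comparison, and the 5 genes most and 3 least like Nt5e, 1 of which is not reported here. The 4 genes set beside Slc29a4 come from an earlier look at these data and were chosen after values were seen, as was the choice to set them there. Promoters are RefSeq's (GRCm38.p6).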

Additional observations from a re-analysis of the deposited data

How the results depend on the processing

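Counts of called genes of the purine list moved by over 1.5 times in several settings; beyond what a setting's construction gives (fewer libraries or genes), the cause was not tested. Calls over all genes moved in the same settings, so these moves are not those of the list alone. For dKO against WT at 48 h, 3 were called, with 8 under library size scaling, 6 without a filter and 0 to 23 over the fits that each left out 1 library (over all genes 1430, with 2540, 2962 and 15 to 6522). At 24 h, 0 were called, with 2 without a filter, 1 in a fit of those groups alone and 0 to 2 with a library left out (all genes 55, with 206, 181 and 13 to 368). Over both times, 3 were called, with 5 under library size scaling, 6 without a filter and 0 to 22 with a library left out (all genes 994, with 1303, 2264 and 56 to 5606). For the change of the genotype difference with time, 0 were called, with 0 to 12 when a library was left out (all genes 0, with 0 to 3460, and 170 without a filter). Over time in dKO, 4 were called, with 9 without a filter, 2 at a mean of at least 50 counts, 23 in a fit of those groups alone and 0 to 16 with a library left out (all genes 463, with 1649, 372, 4545 and 32 to 3302). Over time in WT, 8 were called, with 20 under library size scaling, 5 at a mean of at least 50 counts, 0 in a fit of those groups alone, 4 by DESeq2 and 1 to 23 with a library left out (all genes 1449, with 3368, 1217, 31, 1106 and 595 to 4214). Where a left-out library leaves 1 in its group, that one is assumed to vary like the others. The replicate numbers did not pair the libraries (correlations of deviations of -0.076 to 0.172). With a replicate block the counts were 2, 0, 3 and 0 for the 4 comparisons with genotype and 2 and 7 over time in dKO and WT. The directions that turned were all of small values that passed no test. Under library size scaling the genotype value at 48 h was 0.10 for Cd38 and 0.13 for Dpp4, the change of the genotype difference with time was 0.016 for Nt5e and 0.14 for Entpd1 (0.023 by DESeq2), and the WT time value of Dpp4 was -0.17. The WT time value of Cd38 was 0.00057 with RLE scaling and 0.0018 without a filter. Over left-out libraries, the genotype value at 48 h ranged from -0.44 to 0.33 for Cd38 and from -0.20 to 0.088 for Dpp4, and at 24 h from -0.048 to 0.47 for Entpd1 and from -0.17 to 0.0040 for Ada. The change of the genotype difference with time ranged from -0.37 to 0.027 for Nt5e, from -0.29 to 0.28 for Entpd1 and from -0.094 to 0.36 for Adora2a. The dKO time value of Cd38 ranged from -0.022 to 0.98 and the WT one from -0.42 to 0.19. Depth limits Entpd1, Cd38 and P2rx7 most, at 0 to 54 counts per library.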
